A study of Mus musculus with 4 samples.

Results

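The cells described here are fetal liver progenitors that carried transcripts of stem cell regulators and of the cytokine receptor Flt3 but no transcript of Gata2. A cell was a member when the UMIs (unique molecular identifiers, each counting 1 captured RNA molecule) of Hlf, Meis1, Hoxa9, Hoxa7 and Mycn together made up at least 2 of every 10000 of its UMIs. It also had to hold at least 1 UMI of Flt3, no UMI of Gata2 and under 2 UMIs of Cpa3, with Irf8 under 5 and Cebpe under 4 per 10000. The rule was met by 362 of 9960 cells, called the Flt3-detected class below. Members numbered 92 and 107 in libraries A and B, from enhancer-deleted embryos, and 81 and 82 in libraries F and I, from wild-type embryos. All embryos were C57Bl/6J at E14.5, and all cells were sorted from fetal liver as Lin-Sca-cKit+Cd34+, so the genotype (Gata2-77-/-, without the -77 enhancer on both alleles, against wild type) was the only labelled difference. The series describes 2 embryos of each genotype, and each genotype had 2 libraries, but the letters are not tied to the numbered samples. RNA was captured on the 10x Genomics Chromium droplet platform, and the deposited table holds UMI counts for 3624 genes.

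Flt3 is a receptor tyrosine kinase whose ligand supports multipotent progenitors, lymphoid progenitors and dendritic cells. Gata2 encodes a GATA family protein that blood stem cells need, and the -77 enhancer is a distal element that drives it in progenitors. In mouse bone marrow, multipotent cells that gain Flt3 are known to lose megakaryocyte and erythroid potential while they turn on lymphoid genes at a low level, a state called lymphoid priming.

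The class was chosen by its own counts, so the levels of the genes in the rule are a description. Flt3 reached 164 and 164 CPM (UMIs per 1000000 UMIs of the measured panel) in members of libraries A and B, and 121 and 110 CPM in members of F and I. In all other cells it stood at 13.8 and 14.0 CPM in A and B and at 9.77 and 8.24 in F and I. Most members rested on little Flt3 RNA: 267 of the 362 had 1 UMI, 66 had 2, 29 had 3 or more, and the highest had 7. A single Flt3 UMI was held by 75 of 92 and 94 of 107 members in A and B. In F and I it was 50 of 81 and 48 of 82. The summed stem regulators ran from 2.01 to 16.1 per 10000, with a median of 3.82. Of the 5 regulators, 60 members held 1, 129 held 2, 99 held 3, 57 held 4 and 17 held all 5. Those with only 1 numbered 29 and 23 in A and B and 5 and 3 in F and I. At the edge of the rule, 64 members had a sum from 2 to under 2.5 per 10000, and 79 otherwise eligible cells just outside had 1.5 to under 2. Another 52 stem-marker cells held Flt3 together with Gata2 and fell outside. Since 1 UMI decided most memberships, cells with low Flt3 could be missed. When members were thinned at random to 4346 UMIs each, 66.7% and 63.4% in A and B still held a Flt3 UMI, and 55.7% and 47.5% in F and I. The share of cells with a Flt3 UMI in wild-type cells that should lack it was 1.52% and 3.41% among 132 and 88 cells with Klf1 and Gata1 (libraries F and I), and 1.60% and 0% among 187 and 57 cells with at least 5 UMIs of the neutrophil gene Camp.

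Flt3 (ENSMUSG00000042817.15) lies on the minus strand of chromosome 5, from 147330741 to 147400489 in mm10. Its promoter is shown because its transcript defines the class. The RefSeq window, 250 bases before to 50 after the start (GRCm38.p6, chr5:147400440-147400739, minus strand), reads 5′ to 3′:
Flt3 promoter: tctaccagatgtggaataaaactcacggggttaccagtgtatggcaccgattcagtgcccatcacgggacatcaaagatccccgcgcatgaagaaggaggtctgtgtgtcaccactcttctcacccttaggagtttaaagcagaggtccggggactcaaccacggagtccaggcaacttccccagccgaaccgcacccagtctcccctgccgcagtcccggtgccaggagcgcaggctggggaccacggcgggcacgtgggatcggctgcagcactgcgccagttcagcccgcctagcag
No capitals stand in it, since a search of both strands found no match to any of 3 motifs. These were GATA letters (AGATAA and also AGATAG, or TGATAA and also TGATAG), the STAT-like letters TTCNNNGAA and the ETS-like letters GAGGAAG. Among 32851 mouse promoters of this length, 29.8% held a GATA match, 8.30% a TTCNNNGAA match and 13.6% a GAGGAAG match.

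Markers outside the rule were read next. Sox4, a transcription factor of early progenitors, stood at 198 and 195 CPM in members of A and B and at 188 and 177 in F and I, against 82.3 and 93.7 and against 57.2 and 56.9 in the other cells of the same libraries. Hmga2, a chromatin protein of fetal stem cells, stood at 469 and 480 CPM in A and B and at 494 and 521 in F and I, against 297, 326, 196 and 222 in the other cells. Each was higher in members than in all other cells of every library. Stem-marker cells with neither Flt3 nor Gata2 stood close: they had 159, 151, 154 and 194 CPM of Sox4 and 431, 405, 410 and 517 CPM of Hmga2 in A, B, F and I. Neither gene was called between members and those cells (edgeR adjusted p = 0.294 and 0.176). The genes of the sort gate were present: Cd34 at 369 to 408 CPM and Kit at 51.6 to 74.2. The gene for Sca1, Ly6a, was not among the genes analysed. Myeloid transcripts were plentiful. The 14 primary granule and early myeloid genes summed to 4418 and 4525 CPM in A and B and to 3580 and 3595 in F and I, and Mpo was found in 76.1% to 90.1% of members, against 62.1% and 61.4% of wild-type cells with Klf1 and Gata1 in F and I. The monocyte and macrophage genes summed to 464 and 521 CPM in A and B and to 471 and 411 in F and I. That sum includes Irf8, which the rule caps, at 81.8 and 81.9 CPM in A and B and 50.4 and 42.8 in F and I. Gata1 had 3 UMIs in all members together. The 18 measured erythroid genes summed to 395 and 575 CPM in A and B and to 369 and 400 in F and I, with 6 to 8 of them at 0. The 8 neutrophil genes summed to 14.4 and 20.5 CPM in A and B and to 140 and 67.4 in F and I, with 5 and 4 of them at 0 in A and B and 1 and 2 in F and I. These 8 include Cebpe, which the rule also caps, at 0 and 1.28 CPM in A and B and 3.96 and 3.97 in F and I.

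**Figure D1:**
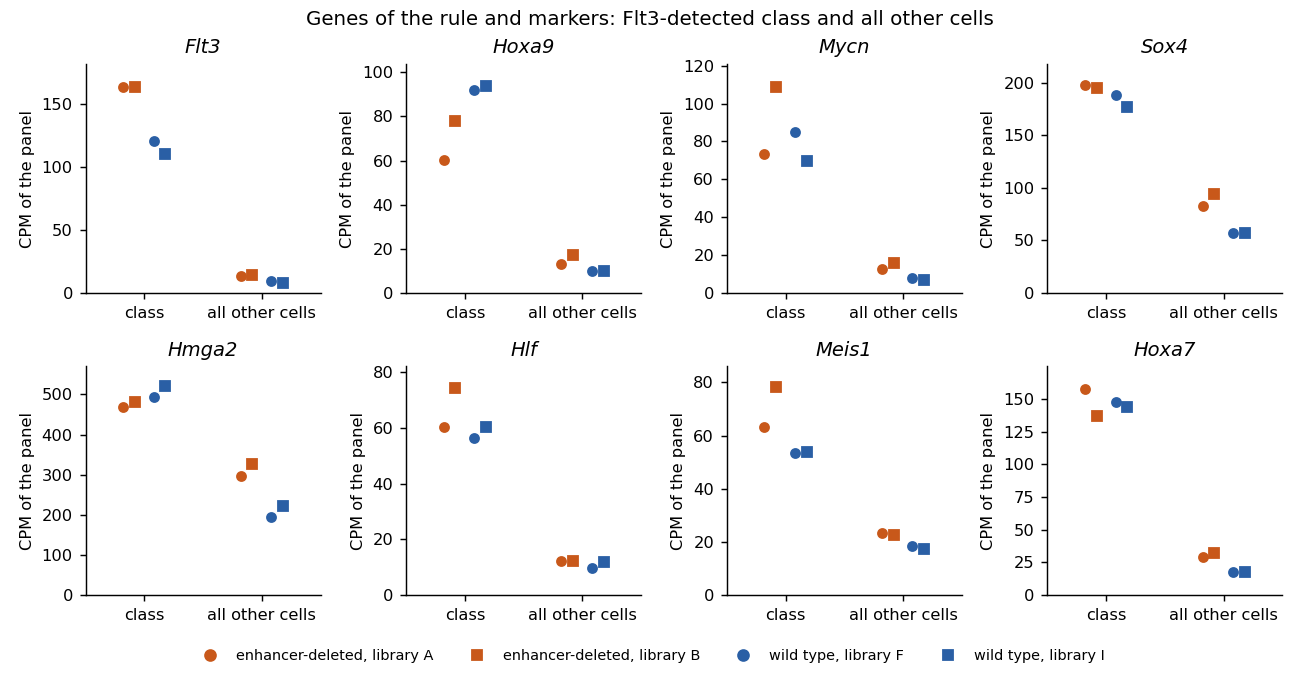
Levels in CPM of the panel (vertical axes, from 0) of 6 genes of the rule and of the 2 markers outside it, Sox4 and Hmga2, in the Flt3-detected class and in all other cells, with 1 point per library. Sox4 stands at 177 to 198 CPM in the class and at 56.9 to 93.7 in other cells.

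The share of cells in the class was read as deposited and at equal depth. Members made up 4.12% (95% exact binomial interval 3.33% to 5.02%) of cells in A, 3.898% (3.21% to 4.69%) in B, 2.66% (2.12% to 3.30%) in F and 4.23% (3.38% to 5.23%) in I. These intervals cover counting error only. The genotypes overlapped, with means of 4.01% ± 0.154 in enhancer-deleted and 3.45% ± 1.11 in wild-type libraries (SD, n = 2 each). Median depth per cell was 7492 and 7087 UMIs in A and B, and 12826.5 and 17437.5 in F and I, and a deeper cell has more chance to show a UMI of either Flt3 or Gata2. With every cell thinned to 4346 UMIs before the rule was applied (995 shallower cells left out, and stem-marker cells chosen anew), the shares were 3.43% and 3.50% in A and B and 2.32% and 2.62% in F and I. When only the Flt3 and Gata2 terms were read on thinned counts, an alternative chosen after the data had been seen, they were 2.99% and 2.80% in A and B and 1.64% and 2.20% in F and I. The genotypes no longer overlapped there, but an exact permutation of 2 against 2 libraries cannot reach p = 0.05, and no other test of the share was run. The rule also asks for no Gata2, and Gata2 stood at 7.48 and 6.73 CPM over all cells of A and B and at 26.3 and 23.2 over those of F and I.

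**Figure D2:**
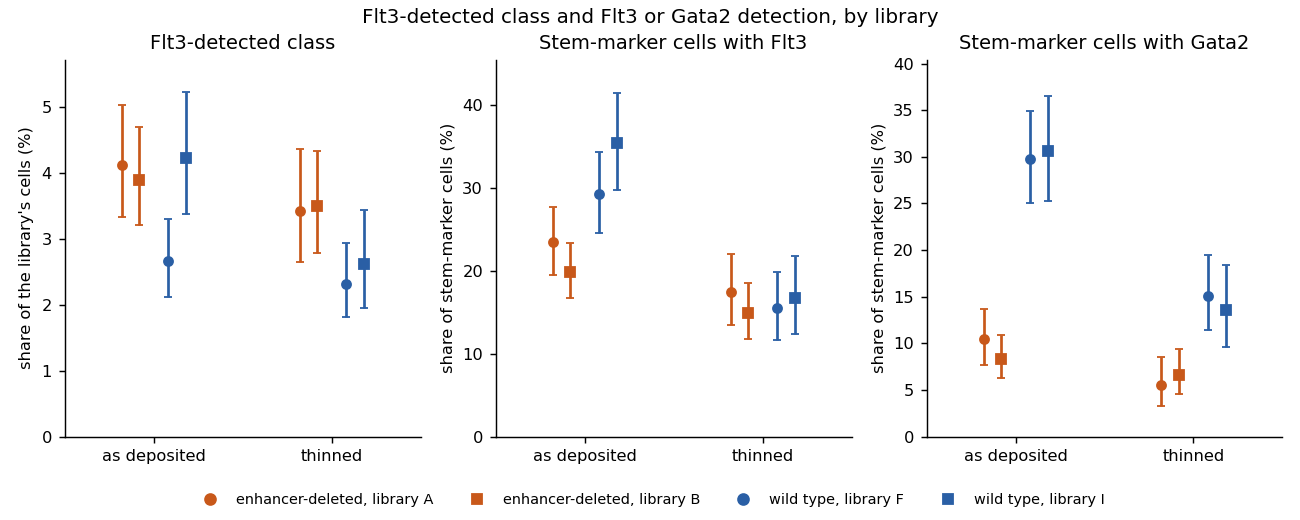
Share of each library's cells in the Flt3-detected class (left) and shares of stem-marker cells with a UMI of Flt3 (middle) or Gata2 (right), in percent from 0, as deposited and at 4346 UMIs per cell. Points are libraries and bars are 95% exact binomial intervals; the Flt3 shares of the genotypes separate as deposited and overlap once thinned, whereas the Gata2 shares stay apart.

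The level of Flt3 itself was read in all 1628 stem-marker cells, chosen without regard to Flt3 and Gata2. A Flt3 UMI was found in 23.4% and 19.9% of them in A and B, and in 29.2% and 35.4% in F and I. At 4346 UMIs per cell these shares were 17.4% and 14.9% in A and B and 15.4% and 16.7% in F and I, and the genotypes overlapped. In CPM, Flt3 stood at 41.5 and 35.8 in A and B and at 38.7 and 44.8 in F and I. The log2 fold change, enhancer-deleted over wild type, was -0.17 (SE 0.16, edgeR adjusted p = 0.635 over 3558 genes, of which 0.562% were called). No difference in Flt3 was detectable with these 4 libraries, which does not show that it was equal. Gata2 was found in 10.4% and 8.36% of stem-marker cells in A and B and in 29.8% and 30.7% in F and I, and at 4346 UMIs per cell in 5.50% and 6.65% against 15.1% and 13.6%.

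Within the Flt3-detected class, few genes differed between genotypes. UMIs were summed over the members of each library, so that the 4 libraries were the samples. Of 3481 genes tested, 5 passed an edgeR adjusted p of 0.05, which is 0.144%: Socs2, Hbb-bt, Fcer1g and Gm26917 rose (0.115%) and S100a8 fell (0.0287%) in enhancer-deleted members. DESeq2 called 3. Such sums do not separate fewer cells with a transcript from less RNA per cell, so shares of cells are given where they help.

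Socs2, a feedback inhibitor of cytokine receptor signalling, showed the clearest rise. It stood at 86.1 and 67.8 CPM in members of A and B, against 5.93 and 3.97 in members of F and I, and the genotypes did not overlap. The means were 77.0 ± 12.9 and 4.95 ± 1.39 CPM (SD, n = 2 each), a log2 fold change of 3.91 (SE 0.36, edgeR adjusted p = 0.000942). A Socs2 UMI was present in 41.3% and 24.3% of members in A and B, against 4.94% and 6.10% in F and I, and at 4346 UMIs per cell in 20.5% and 20.8% against 1.27% and 2.50%. The rise passed in all 13 alternatives that were run. It was not particular to Flt3-detected cells: Socs2 stood at 99.8 and 118 CPM in Gata2-detected stem-marker cells of A and B, against 9.28 and 7.66 in those of F and I. The test of the difference between the 2 classes gave a log2 value of 0.27 (SE 0.58, edgeR adjusted p = 0.933). Socs2 (ENSMUSG00000020027.18) lies on chromosome 10 from 95385362 to 95417180, minus strand, mm10.

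Fcer1g, the common gamma chain of Fc receptors, rose to 227 and 211 CPM in A and B, against 111 and 124 in F and I (log2 fold change 0.85, SE 0.12, edgeR adjusted p = 0.0283). It was not called without library F, without library I or by DESeq2. Gm26917, annotated as a long intergenic non-coding RNA on chromosome 17, reached 188 and 230 CPM in A and B, against 123 and 115 in F and I (log2 fold change 0.78, SE 0.12, edgeR adjusted p = 0.0365). It was called in 8 of 13 alternatives. The call was lost without library F, without library I, by DESeq2, on thinned cells and at a stem-marker threshold of 4 per 10000.

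Hbb-bt, an adult beta globin, and S100a8, a calprotectin subunit of neutrophils and monocytes, were also called, beside other facts about each. Hbb-bt stood at 210 and 358 CPM in A and B, against 74.2 and 113 in F and I (log2 fold change 1.54, SE 0.23, edgeR adjusted p = 0.0283). It was present in 41.3% and 45.8% of members in A and B and in 40.7% and 40.2% in F and I, and it was not called without library F or without library I. In the wild-type neutrophil-like cells with Camp, which should lack it, Hbb-bt stood at 11.3 and 18.2 CPM in F and I. S100a8 stood at 7.18 and 5.12 CPM in members of A and B, against 63.3 and 36.5 in F and I (log2 fold change -3.02, SE 0.48, edgeR adjusted p = 0.0365). In wild-type cells with Klf1 and Gata1, an erythroid pair that should lack S100a8, it stood at 277 and 95.8 CPM, above its level in members, and 59.1% and 38.6% of those cells held a UMI. Libraries A and B held 2 such cells each, so the same reading could not be made there. S100a8 was not called without library F or on thinned cells. The part of free RNA in either result was not tested.

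**Figure D3:**
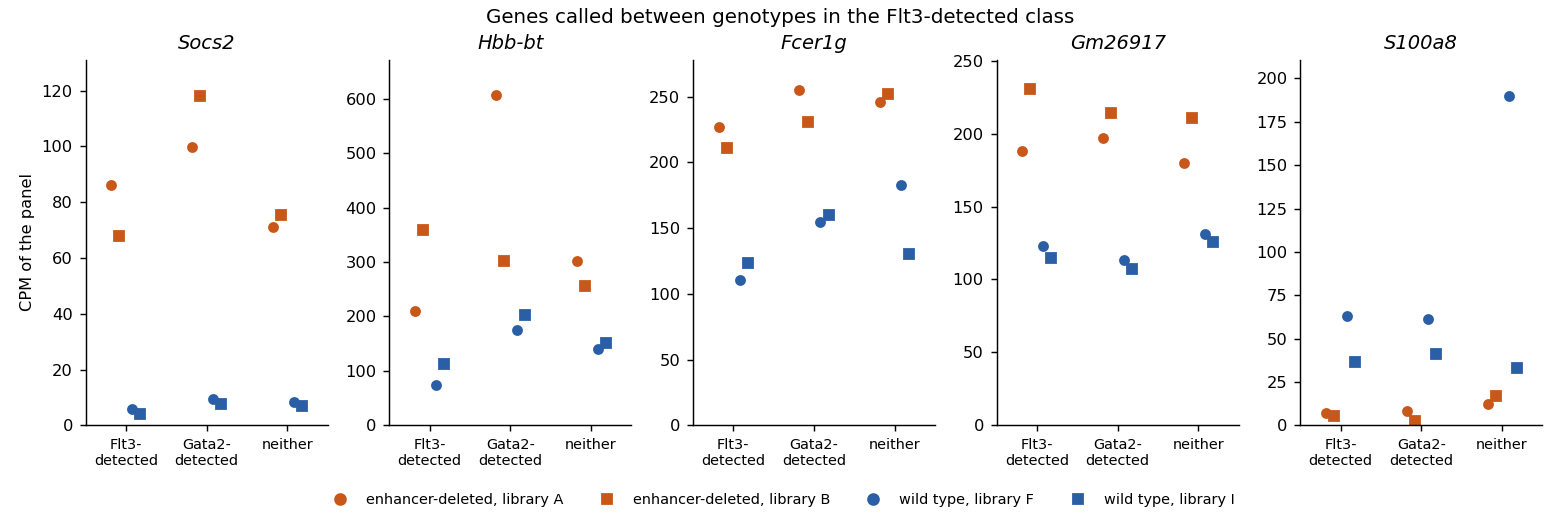
The 5 genes called between genotypes in the Flt3-detected class, in CPM of the panel from 0, with 1 point per library in each of 3 classes of stem-marker cells (Flt3-detected, Gata2-detected and neither). In the Flt3-detected class, Socs2 stands at 86.1 and 67.8 CPM in the enhancer-deleted libraries and at 5.93 and 3.97 in the wild-type ones, and S100a8 runs the other way.

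Among gene lists, few members were called between genotypes. Of 7 erythroid genes 1, Hbb-bt, was called higher, and of 2 neutrophil genes 1, S100a8, was called lower, with medians of -0.32 and -2.89 on the log2 scale. Of the 15 tested lymphoid priming genes none was called in either direction by edgeR, 4 had positive values and the median log2 fold change was -0.20, against -0.02 over all genes. Il12a, a cytokine subunit, had 64.6 and 58.9 CPM in A and B and 117 and 80.9 in F and I (edgeR adjusted p = 0.413). Mzb1, a chaperone of B lineage cells, had 54.5 and 52.5 CPM in A and B and 103 and 97.6 in F and I (edgeR adjusted p = 0.116). Their genotypes did not overlap, but neither did those of 37.7% of all genes tested. Of the 19 S phase and 19 G2/M phase genes tested, edgeR called none, with 3 positive values and medians of -0.21 and -0.09. The 7 tested megakaryocyte and 10 stem regulator genes likewise had no call, nor did the 12 primary granule genes, of which 9 had positive values (median 0.27). A gene without a call is not shown to be equal between genotypes. With 1 library left out the count of calls was 31 without A, 12 without B, 1 without F and 2 without I, and 285 genes had an unadjusted p under 0.05.

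The strongest contrasts lay between classes of stem-marker cells. The comparison group was the 281 stem-marker cells with a Gata2 UMI, some of which also held Flt3, at 22.8 to 27.7 CPM. Their median depth was 8376 and 7442.5 UMIs in A and B and 10947 and 13178 in F and I, against 7749.5, 7062, 11584 and 15410 for the Flt3-detected class. With the library as a block, 261 of 3507 genes passed, or 7.44%, of which 129 were higher and 132 lower in the Flt3-detected class. DESeq2 called 32. The edgeR fit gave single genes little spread of their own, so levels in each library and results under other settings are given beside its p-values.

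Lymphoid priming genes stood higher in the Flt3-detected class. Of the 15 tested, 10 were called higher (background 3.68%) and none lower, with a median log2 fold change of 0.44 against -0.01 over all genes. The gene lists were chosen with earlier results of these data known, so counts of list members, here and below, are descriptions. The receptor Notch1, which directs progenitors to the T lineage, had 58.8 and 58.9 CPM in Flt3-detected cells of A and B and 78.1 and 72.2 in those of F and I, against 24.96, 30.2, 19.4 and 15.3 in Gata2-detected cells. That is a 3.46-fold difference (log2 1.79, SE 0.20), with every Flt3-detected value above every Gata2-detected one. Satb1, a chromatin organiser of lymphoid cells, differed 2.42-fold. Lsp1, an actin-binding protein of leukocytes, differed 2.39-fold, at 225 and 266 CPM in Flt3-detected cells of A and B and 264 and 271 in those of F and I, against 133, 137, 92.8 and 101. Il12a differed 2.15-fold. These 4 were called in all 13 alternatives, where the highest edgeR or DESeq2 adjusted p was 4.68e-05 for Lsp1, 0.0061 for Notch1, 0.0114 for Il12a and 0.021 for Satb1. The transcription factors Tcf4, Bcl11a, Ikzf1 and Mef2c, the co-receptor Cd27 and the GTPase Gimap6 differed by log2 values of 0.42 to 0.67 and were each called in 8 to 11 of the 13. At a stem-marker threshold of 4 per 10000, Gimap6 turned to -0.12. Ltb, Gimap1, Cd44 and Tcf3 were among the 5 tested members without a call. Il7r, Dntt, Rag1 and Rag2, which define later lymphoid stages, were not among the genes analysed.

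Mzb1 and Ebf1, genes of B lineage cells, were each found in a minority of these cells. Mzb1 had 54.5 and 52.5 CPM in Flt3-detected cells of A and B and 103 and 97.6 in those of F and I, against 2.77, 8.23, 11.8 and 12.8 in Gata2-detected cells. The classes did not overlap, at a log2 fold change of 3.04 (SE 0.23), and the highest adjusted p over 13 edgeR and DESeq2 alternatives was 0.0004. A Mzb1 UMI was found in 22.8% and 25.2% of Flt3-detected cells in A and B and in 43.2% and 32.9% in F and I, against 2.22%, 6.25%, 3.85% and 9.52% of Gata2-detected cells. Among wild-type cells with Klf1 and Gata1 it was found in 0% and 3.41%. Ebf1, a transcription factor that commits cells to the B lineage, had 87 UMIs in the Flt3-detected class and 2 in the Gata2-detected one. The ratio of the pooled rates was 35.8, with an exact counting interval of 9.61 to 300.2. This interval leaves out the spread between libraries and between cells. In neither-detected cells Ebf1 stood at 6.73, 1.12, 7.27 and 30.7 CPM in A, B, F and I, the last above the 27.0 CPM of Flt3-detected cells there (edgeR adjusted p = 0.175 between these classes). Ebf1 was detected in 6.52% and 4.67% of Flt3-detected cells in A and B and in 16.0% and 9.76% in F and I. Cd79b, another B lineage gene, had 48.5 to 63.1 CPM in the Flt3-detected class and 38.8 to 51.1 in the Gata2-detected one, without a call (edgeR adjusted p = 0.567).

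Sox4 and Hmga2, the markers outside the rule, were higher as well. They are on the list of stem and multipotent regulators, of which 4 of 11 tested were called higher (background 3.68%) and 3 lower (3.76%). The median log2 fold change of that list was -0.10. Of 6 tested fetal progenitor genes, Hmga2 among them, 2 were called higher and none lower. Sox4 had 177 to 198 CPM in the Flt3-detected class and 121 to 145 in the Gata2-detected one (log2 fold change 0.54, SE 0.10, edgeR adjusted p = 1.76e-05). Hmga2 had 469 to 521 CPM and 330 to 425 CPM in the same order (log2 fold change 0.46, SE 0.07, edgeR adjusted p = 2.24e-08). Egfl7, a secreted protein of endothelium that early progenitors also express, and Emb, a transmembrane glycoprotein, differed by log2 values of 0.59 and 0.93. Sox4, Hmga2 and Egfl7 were not called at a stem-marker threshold of 4 per 10000, and Sox4 and Egfl7 were not called by DESeq2. Emb was called in all 13 alternatives. Interferon-inducible Ifi27, Mndal and Ifi203 were also higher, by log2 values of 1.22, 1.13 and 0.74, with the first at 132 CPM in F and 48.4 to 75.5 in the other libraries. Of 7 tested genes on the interferon response list, 2 were called higher, Ifi27 and Ifi203, and none lower. The median log2 fold change of that list, which does not hold Mndal, was 0.20.

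Megakaryocyte and erythroid genes stood lower, though the sum of the erythroid list did not in library B. In Gata2-detected cells, the erythroid genes summed to 868, 574, 1535 and 1144 CPM in A, B, F and I. Flt3-detected cells had 395, 575, 369 and 400. The megakaryocyte genes summed to 549, 508, 1000 and 615 CPM in Gata2-detected cells and 436, 451, 415 and 381 in Flt3-detected ones. Both gaps were widest in F and I. Of 8 tested megakaryocyte genes, 6 were called lower (background 3.76%) and none higher, with a median log2 fold change of -0.75; of 11 erythroid genes, 6 were lower and none higher, with a median of -0.82. Fli1, an ETS factor of the megakaryocyte lineage, had 38.7 and 37.1 CPM in Flt3-detected cells of A and B and 50.4 and 43.6 in those of F and I, against 80.4, 98.8, 74.2 and 66.4 in Gata2-detected cells (log2 fold change -0.82, SE 0.16). The classes did not overlap for Fli1, which was called in 10 of 13 alternatives. Vamp5, a membrane fusion protein, had 164 and 207 CPM in Flt3-detected cells of A and B and 133 and 164 in those of F and I, against 275, 332, 450 and 400, and was called in all 13.

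For Gata1, Pf4 and Apoe, the difference in CPM between classes was widest in the wild-type libraries. For Hbb-bt it was not: it had 210 and 358 CPM in Flt3-detected cells of A and B and 74.2 and 113 in those of F and I, against 607, 302, 175 and 203 in Gata2-detected cells. Gata1, the erythroid and megakaryocyte regulator, had 3 UMIs in the Flt3-detected class and 86 in the Gata2-detected one, and all 86 came from F and I. Gata2-detected cells of A and B had 0 of 45 and 0 of 48 cells with a Gata1 UMI, which allows shares of up to 6.67% and 6.25% of cells with a UMI. At median depths of 8376 and 7442.5 UMIs, this does not limit the share of cells that express it. The pooled rate was 34.8 times lower in the Flt3-detected class, with an exact counting interval of 11.5 to 172. That interval leaves out the spread between libraries and between cells, and the ratio rests on F and I. In A and B, Gata1 stood at 1.44 and 1.28 CPM in Flt3-detected cells and at 0 in Gata2-detected cells. Pf4, a platelet chemokine, had 1.44 and 2.56 CPM in Flt3-detected cells of A and B and 0.989 and 3.97 in those of F and I, against 8.32, 2.74, 114 and 14.47 in Gata2-detected cells. It was detected in 11.5% of Gata2-detected cells of F, so a few cells carried most of its RNA there. Apoe, an apolipoprotein, had the lowest p of all (log2 fold change -2.88, SE 0.11), but a robust estimate of the spread, chosen after the data had been seen, put its edgeR adjusted p at 0.12. That setting also ended the calls of Hbb-bt, Rap1b, Lmo4 and Igf2bp3, and it did not change those of the other genes named here. Across all genes, 98 calls were left without library F and 93 without library I, against 250 without A and 306 without B.

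The promoter of Pf4 is shown as that of a gene at the far end of the contrast. Its RefSeq window (GRCm38.p6, chr5:90772185-90772484, plus strand) holds 1 GATA match and 1 GAGGAAG match, the second on the opposite strand, in capitals:
Pf4 promoter: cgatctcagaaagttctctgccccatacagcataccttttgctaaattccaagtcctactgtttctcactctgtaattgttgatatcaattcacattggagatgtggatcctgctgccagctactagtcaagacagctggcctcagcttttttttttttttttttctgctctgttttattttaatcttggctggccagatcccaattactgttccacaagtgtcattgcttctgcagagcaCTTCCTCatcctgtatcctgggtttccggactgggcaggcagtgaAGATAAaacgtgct
A GATA match stood in 28.7% of 136 promoters of genes higher in the Flt3-detected class, in 22.6% of 146 promoters of genes higher in the Gata2-detected class and in 19.1% of 3530 promoters of panel genes. Some genes have several promoters, and a match is only a description.

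**Figure D4:**
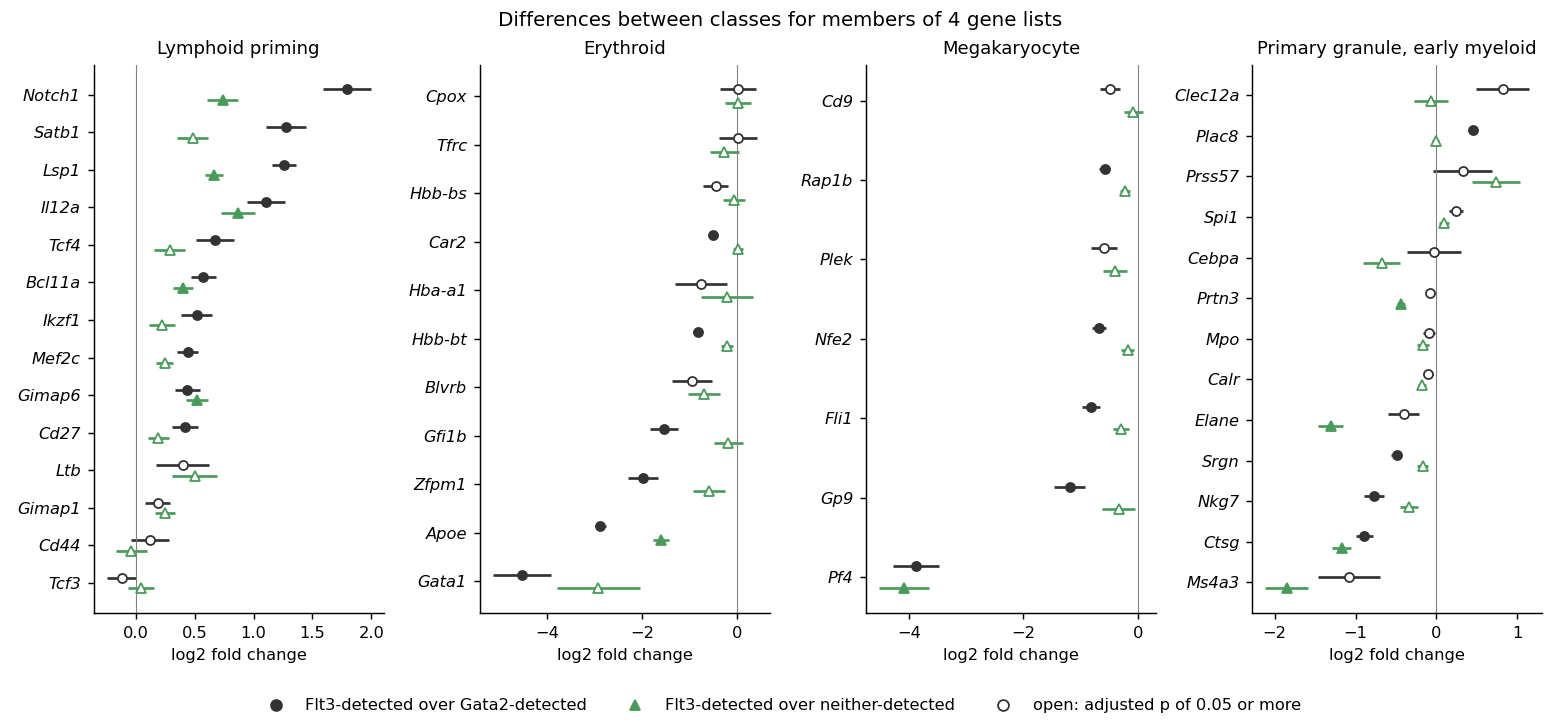
Log2 fold change (horizontal axes) of tested members of 4 gene lists, without those not reported here, Flt3-detected over Gata2-detected (circles) and Flt3-detected over neither-detected (triangles). Bars are 1 SE and open symbols have an edgeR adjusted p of 0.05 or more; 10 lymphoid priming genes are filled to the right for the Gata2-detected comparison, and 5 of the 7 megakaryocyte genes drawn are filled to the left.

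A second comparison asked how members differed from the 985 stem-marker cells with neither Flt3 nor Gata2. Those cells were shallower in every library, with median depths of 6025 and 6383 UMIs in A and B and 9522 and 11575.5 in F and I, so some may hold Flt3 that was not captured. Here 52 of 3525 genes passed, or 1.48%, with 30 higher and 22 lower in the Flt3-detected class, and DESeq2 called 14. Lymphoid priming genes were again higher: 5 of 15 (background 0.851%), namely Lsp1, Il12a, Notch1, Gimap6 and Bcl11a, with none lower and a median log2 fold change of 0.29 against -0.01 over all genes. Lsp1 had 145, 147, 193 and 172 CPM in neither-detected cells of A, B, F and I, below its Flt3-detected value in each library (log2 fold change 0.66, SE 0.08). Il12a differed by 0.87 (SE 0.15) on the log2 scale, and both were called in all 13 alternatives. Mzb1 had 21.8, 17.5, 38.8 and 71.5 CPM in neither-detected cells (log2 fold change 1.09, SE 0.16) and was called in 12. The 2 comparisons share the Flt3-detected cells, so they are not independent of each other.

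Granule genes of the myeloid lineage stood lower than in neither-detected cells. Of 14 primary granule and early myeloid genes, 4 were called lower (background 0.624%) and none higher, with a median log2 fold change of -0.26. Elane, neutrophil elastase, had 44.5 and 15.4 CPM in Flt3-detected cells of A and B and 60.3 and 24.6 in those of F and I, against 90.7, 91.0, 128 and 52.7 in neither-detected cells. It was lower in each of the 4 libraries (log2 fold change -1.31, SE 0.16). In wild-type cells with Klf1 and Gata1, which should lack it, Elane stood at 124 and 49.1 CPM in F and I. Members of F and I stood below those values, and neither-detected cells of F and I stood near them. Ctsg, cathepsin G, had 155, 123, 76.2 and 86.5 CPM in Flt3-detected cells of A, B, F and I, against 248, 278, 291 and 165 in neither-detected cells and 137 and 56.4 in Klf1 and Gata1 cells of F and I. The part of free RNA in these differences was not tested. Prtn3, proteinase 3, differed by a log2 value of -0.44 (SE 0.05), and Ms4a3, a marker of granulocyte and monocyte progenitors, by -1.85 (SE 0.26). Elane, Ctsg and Prtn3 were not called against neither-detected cells at a stem-marker threshold of 4 per 10000. Ms4a3 was called in all 11 alternatives that gave it a result. Mpo, myeloperoxidase, was not called, at 319, 405, 271 and 403 CPM against 320, 476, 382 and 392. Ctsg was also lower than in Gata2-detected cells (log2 -0.89), though at a stem-marker threshold of 4 per 10000 it stood at 0.58. Against those cells edgeR called Nkg7 and Srgn lower too and Plac8 higher. Apoe and Pf4 were lower than in neither-detected cells too, but the robust estimate put the edgeR adjusted p of Apoe at 0.25. The count of calls was 31 without library F and 76 without library I.

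The genotype effect differed between the Flt3-detected and Gata2-detected classes for 28 of 3507 genes, or 0.798%, with 15 differences positive (0.428%) and 13 negative (0.371%), while DESeq2 called 2. Here too the edgeR fit gave single genes little spread of their own, so its p-values are to be read beside the levels in each library. The 5 with the lowest p were Apoe, Ifitm1, Malat1, Hsp90aa1 and Vamp5. Apoe had 51.7 and 37.1 CPM in Flt3-detected cells of A and B and 79.1 and 57.1 in those of F and I, whereas Gata2-detected cells had 94.3 and 49.4 in A and B and 887 and 517 in F and I. Of these 2 classes, the high Apoe values were thus those of wild-type Gata2-detected cells (difference of log2 fold changes 2.67, SE 0.31, edgeR adjusted p = 2.26e-14, called in all 13 alternatives). Neither-detected cells also differed by genotype, with 63.7 and 49.6 CPM in A and B and 322 and 239 in F and I. Apoe was also present in wild-type cells with Camp, at 293 and 340 CPM in F and I, above its level in Flt3-detected cells of any library. Ifitm1, an interferon-induced membrane protein, had 829 and 645 CPM in Flt3-detected cells of A and B against 591 and 335 in F and I, and 1037 and 810 against 406 and 206 in Gata2-detected cells. The genotype difference ran the same way in both classes and was the smaller in Flt3-detected cells (difference of log2 fold changes -0.92, SE 0.11). Malat1, a nuclear non-coding RNA, had 2194 and 2273 CPM against 2271 and 2234 in Flt3-detected cells, and 2097 and 1880 against 2562 and 2698 in Gata2-detected cells. Only the Gata2-detected cells kept the genotypes apart for it. Gata1 and Pf4 were not among the 28 (edgeR adjusted p = 0.155 and 0.454). Lymphoid priming genes had no call among 15 by edgeR, with a median difference of -0.25 against 0.00 over all genes. Among 8 megakaryocyte genes, 2 were called positive (background 0.428%) and none negative, with a median of 1.11 and 7 positive values. Among 11 erythroid genes, 1 was called positive and none negative, with a median of 0.51 and 8 positive values. With 1 library left out, 16 genes passed without A, 12 without B, 19 without F and 16 without I.

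**Figure D5:**
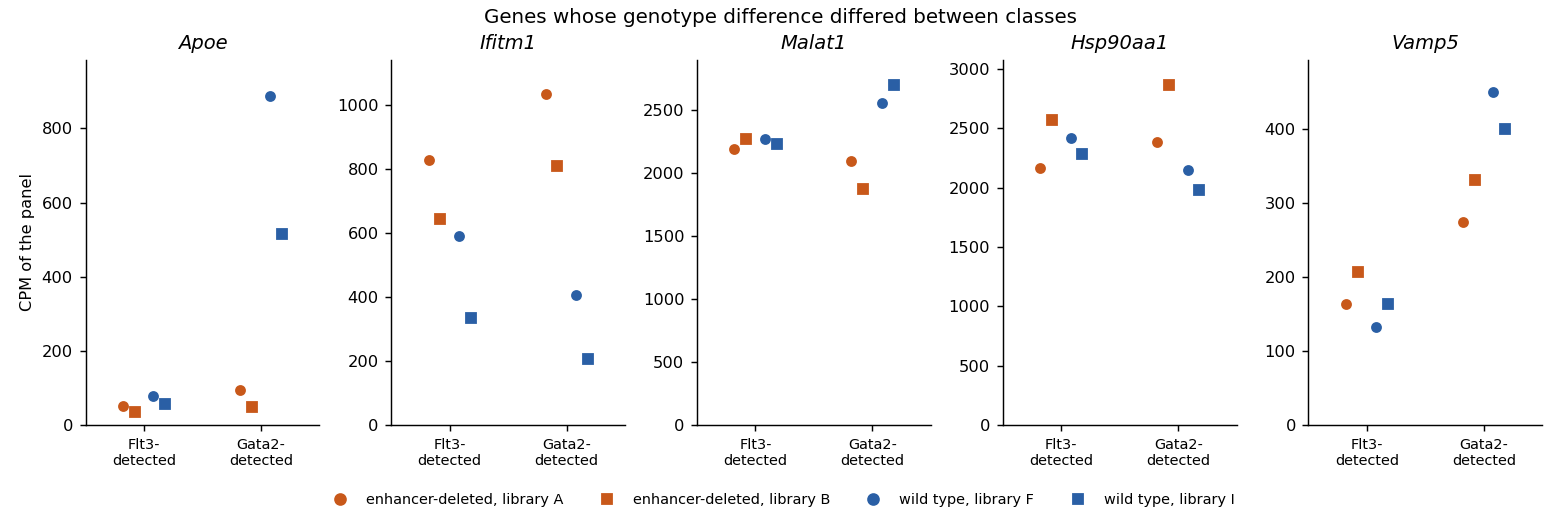
The 5 genes whose genotype difference differed most clearly between classes, in CPM of the panel from 0, with 1 point per library in the Flt3-detected and Gata2-detected classes. Apoe is high only in the wild-type Gata2-detected cells, at 887 and 517 CPM, and Malat1 separates the genotypes only in the Gata2-detected class.

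The genes most like Flt3 were sought by detection at equal depth. Among stem-marker cells with no Gata2 UMI after thinning to 4346 UMIs, 209 held a Flt3 UMI and 1019 did not. Thinning left a Gata2 UMI in 48.6% and 71.4% of Gata2-detected cells in A and B and in 48.0% and 44.3% in F and I. The rest of those cells are therefore among the cells compared. The difference in the share of cells with a transcript, averaged over the 4 libraries, was largest for Lsp1 (17.3 percentage points), Il12a (15.9), Tsc22d1 (15.9), Gimap6 (15.7), Apobec3 (14.7), Ing4 (14.7), Notch1 (14.7), Slc9a3r1 (12.4), Spi1 (11.9) and 1110059E24Rik (11.9). Il12a was found in 30.1% of cells with Flt3 and in 14.52% of cells without, and Spi1, the myeloid and lymphoid factor PU.1, in 73.7% and 62.8%. The libraries were uneven: for Lsp1 the difference was 7.06 points in A, 34.9 in B, 26.0 in F and 1.04 in I. Il12a was the steadier, at 18.6, 9.99, 17.7 and 17.5 points in A, B, F and I. The 10 were picked for this likeness, so no test is given.

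Members of the class also differed among themselves. At 4346 UMIs per cell, the 15 lymphoid priming genes other than Flt3 summed to a median of 6 and 7 UMIs per member in A and B and 8 and 8 in F and I, and single members ran from 1 to 30. Gata2-detected cells had medians of 5 and 6 in A and B and 5 and 4 in F and I, and neither-detected cells 5, 5, 6 and 6. The primary granule genes summed to medians of 17 and 18 UMIs per member in A and B and 15 and 14 in F and I, with single members from 3 to 69. S phase genes had medians of 7, 7, 7 and 8 UMIs per member in A, B, F and I, and between 6 and 8 in the other classes. The ranges of single cells overlapped between the 3 classes for each of these lists.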

How the data were processed

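The submitters' processing notes name Cell Ranger 2.0.2, Seurat 2.3.4 and mm10 without their roles; the selection of cells and genes is not given in the sources used here. The deposited table holds counts of 3624 genes in 9960 cells (4980 per genotype), with no header, so cells were read in the order of the grouping file. Library totals were 16837863 (A), 19921052 (B), 40117680 (F) and 33913118 (I) UMIs; Xist split A and F from B and I. No 2 libraries held an identical cell column, and barcodes were not analysed here. The library letters are not tied to sample numbers. No doublet caller was run; cells above the 95th percentile of depth were left out in an alternative.

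Counts were summed per library and class, filtered with filterByExpr, scaled by TMM and tested two-sided by quasi-likelihood in edgeR 4.0.16 under R 4.3.3, at a Benjamini-Hochberg adjusted p of 0.05, without the 10 genes of the rule except in the Flt3 test; DESeq2 1.42.0 was an alternative. Class comparisons had the library as a block. Members and gene lists were chosen with earlier results of these data known. Named genes were, between genotypes, up to 12 each way with at least 20 CPM; between classes, up to 10 each way with at least 50 CPM, the same direction in all libraries; for the interaction the 5 lowest p; and up to 3 of each list. Other genes were named after their values were seen. Of the symbols, 3522 matched 1 gene in GENCODE release 21 for mouse. Some genes that these rules name are not reported here.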

Additional observations from a re-analysis of the deposited data

Results flagged for a closer look

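The difference of genotype effects between the Flt3-detected and the Gata2-detected class (log2 fold change of enhancer-deleted over wild type in the first, minus that in the second) was tested as an interaction in edgeR, and the 5 genes with the lowest p are given here. The difference was 2.67 for Apoe, which edgeR and DESeq2 called in all 13 alternatives. For Ifitm1 it was -0.92, lost when the rule was applied to thinned cells. For Malat1 it was 0.40 and for Hsp90aa1 -0.32, neither of them called by DESeq2 or at a stem-marker threshold of 4 per 10000. Hsp90aa1 was also lost on thinned cells. It had 2168 and 2573 CPM in Flt3-detected cells of A and B against 2419 and 2284 in F and I, and 2385 and 2859 against 2151 and 1982 in Gata2-detected cells. For Vamp5 it was 0.80, not called by DESeq2, at the higher stem-marker threshold, without library B or without library F. The Gata2-detected class was chosen by Gata2, whose CPM over all cells was 7.48 and 6.73 in A and B and 26.3 and 23.2 in F and I; its part in the 5 differences was not tested.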

How the results depend on the processing

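No paired analysis was possible because the library letters are not tied to the numbered samples. The count of genes called between genotypes in the class was 5; it was 3 by DESeq2, 3 on thinned cells, 14 at a stem-marker threshold of 4 per 10000 and 8 with equal cells per library, and 1 (without F) to 31 (without A) when a library was left out. For the Flt3-detected against the Gata2-detected class the count was 261; it was 32, 59, 30 and 162 under those 4 settings in that order, and 93 (without I) to 306 (without B) with a library left out. Against neither-detected cells it was 52; it was 14 by DESeq2, 183 on thinned cells and 9 at the higher threshold, and 31 (without F) to 76 (without I) with a library left out. For the difference of genotype effects it was 28; it was 2, 6, 2 and 10 under the 4 settings, and 12 (without B) to 19 (without F) with a library left out.

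The difference in the share of cells in the Flt3-detected class, 0.56 percentage points, was -0.224 without F and 1.344 without I. Against the Gata2-detected class, the log2 value turned to 0.58 for Ctsg and -0.12 for Gimap6 at the higher threshold, to -0.00317 for Mcm7 on thinned cells and to 0.20 for Lmo4 without I (-0.83 without A). Against neither-detected cells it turned to 0.022 for Pfas, 0.093 for Rpgrip1 and 0.050 for Cdk6 on thinned cells. The causes were not tested. Leaving out 1 library leaves a genotype with 1, whose spread is then assumed to be that of the others. The class held 81 to 107 cells per library.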
